A study of Homo sapiens with 4 samples.

Results

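The Rab genes, which encode the largest branch of the small GTPase superfamily, were examined in 2 diffuse large B-cell lymphoma (DLBCL) cell lines treated with the BET inhibitor JQ1. Members were all genes of the deposited gene table whose whole symbol is RAB followed by a number and at most 1 letter from A to F, with a mean above 0 over the libraries. Of 41507 genes, 62 symbols matched and 55 were members. The other 7 (RAB1C, RAB6B, RAB6C, RAB7B, RAB32, RAB40A and RAB41) were listed at 0 in every library. Of the members, 36 had a mean of at least 1 RPKM (reads scaled for gene length and sequencing depth) and 19 were below it.

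SU-DHL-5 and Toledo are established human B-lymphocyte lines from DLBCL. Each was cultured either with DMSO, the vehicle, or with JQ1 at 1 µM, which keeps the bromodomains of BET proteins from binding acetylated histones. The sample labels give 6 h of treatment and a figure legend of the study gives a longer time. There was 1 sample per condition with 2 libraries each, and nothing in the sources used here says what separates the libraries. They were therefore averaged (n = 1 per condition), no test could be made, and no difference below has a replicate check.

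A Rab protein is a membrane switch. In its GTP-bound state it sits on the membrane of 1 organelle and recruits effectors (tethers, motors and sorting proteins) that move, dock or fuse vesicles, and after GTP hydrolysis it is drawn off the membrane by GDP dissociation inhibitor and reused. Prenyl groups attached by geranylgeranyl transferase with a Rab escort protein anchor it. In lymphocytes, RAB27A and its effectors are best known for the release of cytotoxic granules and exosomes, RAB5 and RAB7 proteins for the uptake and degradation of antigen, and RAB4 and RAB11 proteins for the return of receptors to the cell surface.

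The libraries had 14617587 to 17679837 mapped reads, recovered from the RPKM values. The B-cell markers MS4A1, CD79A, CD79B and PAX5 were all at 1 RPKM or more in every library. Their summed level was 939 and 832 RPKM in the DMSO libraries of SU-DHL-5 and 616 and 610.4 in its JQ1 libraries, against 898 and 837, and 592 and 609.9, in Toledo. The sum, most of it CD79A and CD79B, was lower with JQ1 in both lines, but the markers did not move together. As log2 ratios in SU-DHL-5 and Toledo, MS4A1 was at -1.99 and -1.47, CD79A at -0.71 and -0.76, CD79B at 0.01 and -0.28, and PAX5 at -0.64 and 0.27. Their part in the Rab results was not tested. Summed T-cell, myeloid and erythroid markers reached 1.24, 1.29 and 0.422 RPKM at most, and the epithelial markers were listed at 0. HEXIM1, a gene known to answer to BET inhibition, was higher with JQ1 by 2.43 (SU-DHL-5) and 2.57 (Toledo) on the log2 scale, and MYC differed by -0.29 and 0.03. In bulk RNA, fewer cells of a type and less RNA per cell cannot be told apart.

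The family as a whole kept nearly the same level in the 8 libraries. Summed over the members it was 700.2 to 738.0 RPKM, of which the 10 highest members made up 63.3% to 71.1%. The order was led by RAB1B, which directs traffic from the endoplasmic reticulum (ER) to the Golgi, with a mean of 90.2 RPKM over the libraries. RAB7A (late endosomes and lysosomes) followed with 81.2 and RAB5C (early endosomes) with 70.4, then RAB8A (delivery to the plasma membrane) with 49.5 and RAB11B (recycling endosomes) with 39.6. RAB1A, RAB4B, RAB35, RAB14 and RAB11A lay between 25.9 and 34.3 RPKM. This order was not the same in the lines. RAB7A led in SU-DHL-5, with 99.2 to 103 RPKM against 56.5 to 72.9 for RAB1B, and RAB1B led in Toledo, with 91.3 to 141 against 56.5 to 66.2 for RAB7A.

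**Figure D1:**
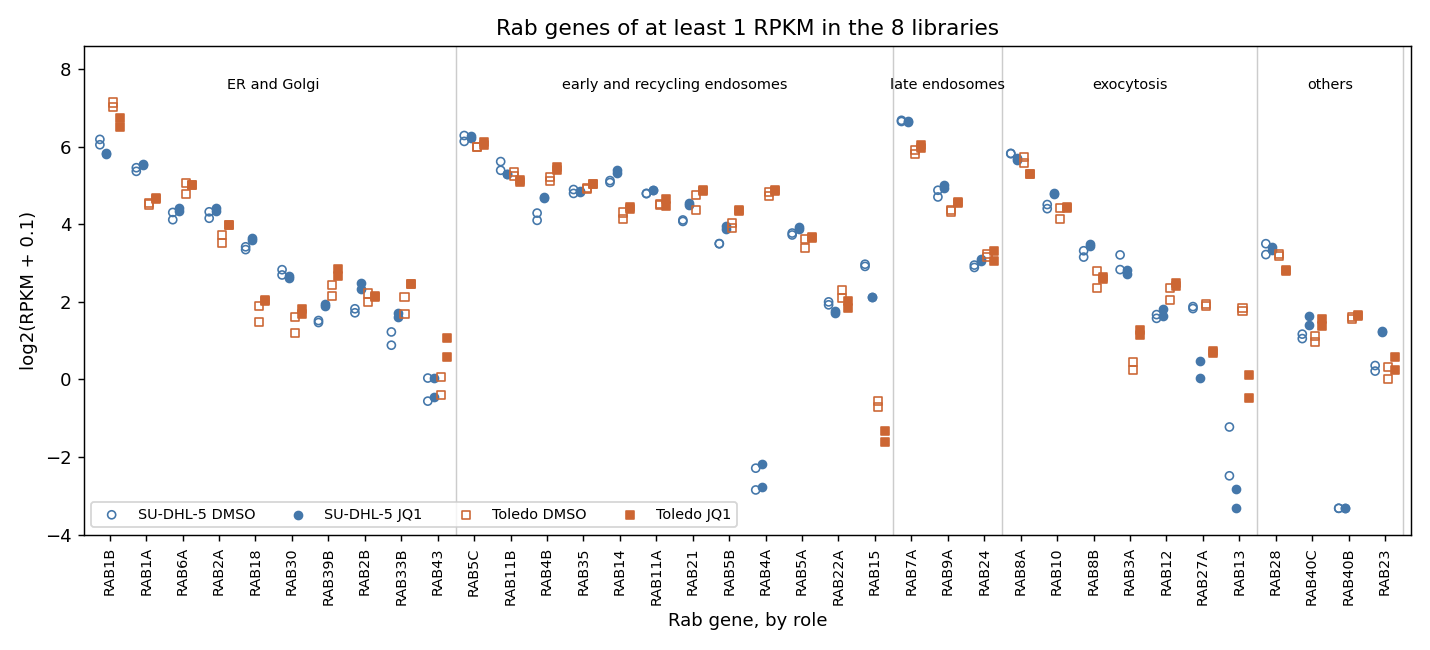
Level of the 36 Rab genes with a mean of at least 1 RPKM, as log2(RPKM + 0.1) on the vertical axis, in each of the 8 libraries (open, DMSO; filled, JQ1; circles, SU-DHL-5; squares, Toledo), with genes grouped by role and ordered by mean. Libraries of a sample lie close together for most genes. RAB4A and RAB40B are near or at the floor of the axis in SU-DHL-5 alone, as is RAB13 with JQ1. RAB27A and RAB13 are lower with JQ1 in both lines, RAB13 from a level already low in SU-DHL-5.

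Sets of close paralogues were unequal in level. Of the 3 RAB5 genes of early endosomes, RAB5C ranged from 63.5 to 78.2 RPKM over the libraries, whereas RAB5A ranged from 10.4 to 15.1 and RAB5B from 11.2 to 20.4. The ranges of RAB5A and RAB5B overlap. RAB11B (34.0 to 49.0 RPKM) was above RAB11A (21.95 to 29.6) in every library. RAB7A stood beside RAB7B, which was listed at 0. RAB27A (0.929 to 3.72 RPKM) was the form of RAB27 detected in both lines, since RAB27B was listed at 0 in SU-DHL-5 and reached 0.0323 RPKM at most in Toledo. Of the RAB3 genes of regulated exocytosis, RAB3A was highest, RAB3D stayed at or below 0.86 RPKM, and RAB3B and RAB3C did not exceed 0.0335.

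The baseline of the lines was compared first, in their DMSO samples, which also serve as the controls of the JQ1 comparisons below. A difference was called when the means of the libraries were at least 1.5-fold apart, with 0.1 RPKM added to both, and both libraries of one sample lay beyond both of the other. Calls were counted over the genes of at least 1 RPKM. Of the 36 Rab genes, 9 were higher in Toledo, where 25.2% of the 9521 genes of at least 1 RPKM were, and 9 were lower, where 23.4% of all genes were. The Rab genes thus differed between the lines about as often as other genes. Their median log2 ratio was -0.09 and that of all genes -0.01. Of the Rab genes, 18 lay within 0.5 of no difference, a share not computed over all genes. At 2-fold, 3 were higher in Toledo (14.4% of all genes) and 4 lower (13.3%). The 3 higher were RAB4A, RAB40B and RAB13, which reached a mean of 1 RPKM only through Toledo. RAB15, among the 4 lower, reached it only through SU-DHL-5. For these genes the filter and the direction are not independent.

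Several of these differences were between a clear level in Toledo and next to none in SU-DHL-5. RAB4A, which sorts receptors from early endosomes back to the surface, was at 26.5 and 28.4 RPKM in the DMSO libraries of Toledo and at 0.105 and 0.0388 in those of SU-DHL-5, or 2822 against 7 reads. The log2 ratio of the reads had a 95% exact binomial interval from 7.56 to 9.92, and all such intervals cover counting error only. Its close paralogue RAB4B was at 17.1 and 19.5 RPKM in SU-DHL-5 and at 37.5 and 34.6 in Toledo, so that the RAB4 transcripts of SU-DHL-5 were almost all RAB4B. RAB40B, a subunit of a ubiquitin ligase that resembles a Rab, was listed at 0 in every SU-DHL-5 library and was at 2.86 and 2.95 RPKM in the DMSO libraries of Toledo. RAB13, which carries cargo to cell junctions and the plasma membrane, was at 3.32 and 3.46 RPKM in Toledo and at 0.0787 and 0.328 in SU-DHL-5 (186 against 11 reads, interval 3.15 to 5.05). The groups did not overlap for any of these genes.

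RAB31, on endosomes and the trans-Golgi network, and RAB37, on secretory granules, fell just short of 1 RPKM in the mean over all libraries and were not in the count. Both were listed at 0 in every SU-DHL-5 library. In the DMSO libraries of Toledo, RAB31 was at 1.74 and 2.37 RPKM and RAB37 at 1.99 and 1.98. With RAB40B, 3 of the 35 Rab genes with at least 1 RPKM in both DMSO libraries of Toledo were listed at 0 in both of SU-DHL-5, as were 2.51% of 9332 such genes. In reverse, 0 of the 32 Rab genes with at least 1 RPKM in both DMSO libraries of SU-DHL-5 were listed at 0 in both of Toledo, as were 0.665% of 9021 such genes.

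Promoter sequences are shown for RAB4A, RAB40B, RAB13 and RAB31, which were picked among the genes with little or no RNA in SU-DHL-5. Their RefSeq starts (assembly GRCh38.p14) lay within 70 bases of their starts in the files. Sequences of other such genes, RAB37 among them, are not shown. Each is the 250 bases before the RefSeq start, written 5′ to 3′ on the strand of the gene, with CACGTG, the E-box bound by MYC and related factors, in capitals. The windows are chr1:229270861-229271110 on the plus strand for RAB4A, chr17:82698699-82698948 on the minus strand for RAB40B, chr1:153986340-153986589 on the minus strand for RAB13 and chr18:9708051-9708300 on the plus strand for RAB31.
RAB4A: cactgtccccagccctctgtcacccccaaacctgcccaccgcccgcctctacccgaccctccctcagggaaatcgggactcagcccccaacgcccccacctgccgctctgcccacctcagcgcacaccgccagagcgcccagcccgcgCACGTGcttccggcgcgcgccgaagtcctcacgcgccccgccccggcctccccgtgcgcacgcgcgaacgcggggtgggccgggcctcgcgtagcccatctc
RAB40B: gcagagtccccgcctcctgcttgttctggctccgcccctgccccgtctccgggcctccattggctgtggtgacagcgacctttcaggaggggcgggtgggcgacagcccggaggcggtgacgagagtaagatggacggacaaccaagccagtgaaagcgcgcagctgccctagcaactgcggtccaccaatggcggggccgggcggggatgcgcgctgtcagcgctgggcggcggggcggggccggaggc
RAB13: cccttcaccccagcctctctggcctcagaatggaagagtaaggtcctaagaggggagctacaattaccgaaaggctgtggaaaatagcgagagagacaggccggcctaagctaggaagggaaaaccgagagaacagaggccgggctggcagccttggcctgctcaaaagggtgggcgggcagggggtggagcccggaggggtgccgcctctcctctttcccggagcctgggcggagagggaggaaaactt
RAB31: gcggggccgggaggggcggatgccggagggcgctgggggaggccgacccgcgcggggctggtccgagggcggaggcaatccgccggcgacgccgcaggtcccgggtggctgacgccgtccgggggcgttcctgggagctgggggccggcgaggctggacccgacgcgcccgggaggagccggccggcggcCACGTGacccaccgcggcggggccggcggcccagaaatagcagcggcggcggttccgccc

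The windows of RAB4A and RAB31 held 1 CACGTG each, which reads the same on both strands, and those of RAB40B and RAB13 held 0. Of 35116 promoters of the same length, 6.34% held it. Of the 42 members with a promoter listed, 5 held it in at least 1 promoter. This is a count by gene and cannot be set against the share by promoter. CG dinucleotides numbered 31 in the window of RAB4A, 24 in RAB40B, 10 in RAB13 and 40 in RAB31, against a median of 11 over all promoters. So 3 of the 4 windows were rich in CG and that of RAB13 was not. No binding or methylation was measured in these samples.

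**Figure D2:**
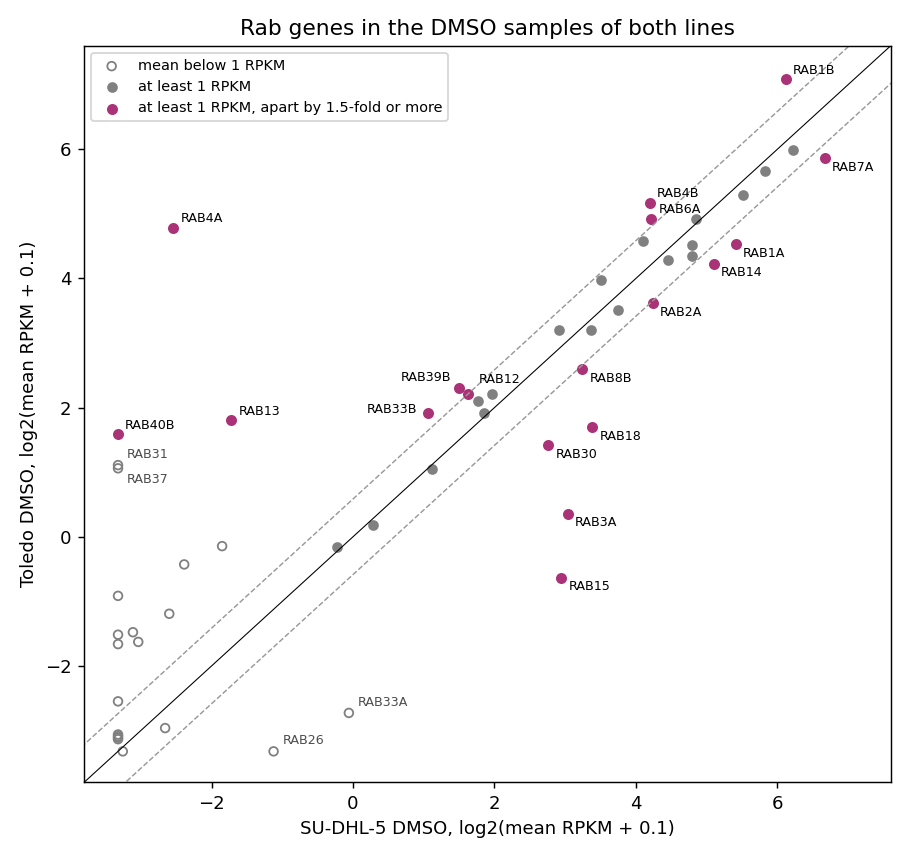
Mean level of the 55 Rab genes in the DMSO samples, SU-DHL-5 on the horizontal and Toledo on the vertical axis, both as log2(RPKM + 0.1), where the solid line marks equal levels and the dashed lines 1.5-fold. Filled coloured points are the 18 called genes of at least 1 RPKM, and the points on the far left, among them RAB40B, RAB31 and RAB37, are at or near 0 in SU-DHL-5.

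Other members were higher in SU-DHL-5. RAB15, an endosomal Rab with a part in receptor recycling, was at 7.74 and 7.44 RPKM there and at 0.513 and 0.576 in Toledo, a log2 ratio of -3.58 with an interval of the reads from -4.19 to -3.44. RAB3A, a Rab of synaptic and secretory vesicles, was at 9.16 and 7.02 RPKM in SU-DHL-5 and at 1.09 and 1.27 in Toledo (log2 ratio -2.68). Among the ER and Golgi members, RAB18, which acts on lipid droplets and the ER, was at 10.1 and 10.6 against 2.69 and 3.62 RPKM (log2 ratio -1.68), and RAB30, a Golgi Rab, at 6.37 and 7.01 against 2.21 and 2.94 (log2 ratio -1.34). For all 4 genes the libraries of the lines were well apart.

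The other called genes differed less, and the paralogues RAB1A and RAB1B went in opposite directions. RAB1B was higher in Toledo, with a log2 ratio of 0.96, and its paralogue RAB1A lower, with -0.89. Both act at the same step from ER to Golgi, and the RAB1A libraries of SU-DHL-5, at 41.2 and 43.9 RPKM, were above those of Toledo, at 23.2 and 22.7. RAB4B (0.98), RAB33B (0.86), RAB39B (0.80) and RAB6A (0.71) were also higher in Toledo, and RAB14 (-0.87), RAB7A (-0.80), RAB8B (-0.65) and RAB2A (-0.62) lower, all as log2 ratios. RAB12 was at the cutoff, with a log2 ratio of 0.59. Several of these calls turned on 1 library of Toledo DMSO. Without its library 1, RAB2A was at -0.53 and RAB8B at -0.44 and neither was called, while RAB21 was called at 0.66. Without its library 2, RAB6A was at 0.56 and RAB12 at 0.43 and neither was called. By role, 4 of the 10 ER and Golgi genes were higher in Toledo and 4 lower. The counts were 2 and 2 of the 12 genes of early and recycling endosomes, and 0 and 1 of the 3 of late endosomes. They were 2 and 2 of the 7 of exocytosis, and 1 and 0 of the other 4. Of all genes, 25.2% were higher and 23.4% lower, and no role was tested against these shares.

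With JQ1, most Rab genes moved little and 3 of low level were lower in both lines. In JQ1-treated SU-DHL-5 cells, 3 of the 36 Rab genes were higher (8.65% of all genes were) and 3 were lower (11.9% of all genes). In JQ1-treated Toledo cells, 2 were higher (6.57% of all genes) and 3 lower (16.1% of all genes). The 3 lower genes were RAB27A, RAB15 and RAB13 in both lines, where 8.53% of all genes were lower in both, and 0 Rab genes were higher in both, where 3.54% of all genes were. Of these, only RAB27A was at 1 RPKM or more in both lines with DMSO, since RAB13 reached that level through Toledo and RAB15 through SU-DHL-5, so that a count over both lines rests on low values for these genes. A count of 3 is 8.33% of the 36. This is close to the 8.65% of all genes higher in SU-DHL-5 and to the 8.53% lower in both lines. It is under the 11.9% lower in SU-DHL-5 and the 16.1% lower in Toledo, shares that include the genes lower in both lines. At 2-fold, 2 Rab genes (RAB27A and RAB13) were lower in SU-DHL-5 (5.43% of all genes), in Toledo (6.94%) and in both lines (3.18%), and 0 were higher (1.73% of all genes in SU-DHL-5, 1.6% in Toledo and 0.704% in both). In each line 30 of the 36 genes lay within 0.5 of no difference on the log2 scale. That share was not computed over all genes, so whether it is particular to the Rab genes was not tested. Of the Rab genes called with JQ1 in either line, none had a mean above that of RAB3A, 4.55 RPKM. The share of all genes called above that level was not computed, so this may hold for other genes too.

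With differences of any size counted, the called ones included, more Rab genes were higher with JQ1 than lower. Both JQ1 libraries were above both DMSO libraries for 19 of 36 Rab genes in SU-DHL-5 (41.1% of all genes) and for 21 in Toledo (29.3%), and below them for 9 (37.3%) and 8 (42.9%). SU-DHL-5 had a median log2 ratio over the Rab genes of 0.12 and Toledo one of 0.14, against 0.01 and -0.06 for all genes. The Toledo median moved with the libraries used, from 0.0545 with library 2 alone to 0.22 with library 1 alone. The JQ1 libraries were above the DMSO libraries in both lines for 12 Rab genes (22.7% of all genes) and below them in both for 7 (29.1%). For RAB3A and RAB30, 2 of the 36, the lines were apart in opposite directions (7.05% of all genes). Spearman's rho between SU-DHL-5 and Toledo log2 ratios was 0.56 over the 36 Rab genes and 0.72 over all 9521, as a description, since genes are not independent replicates.

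**Figure D3:**
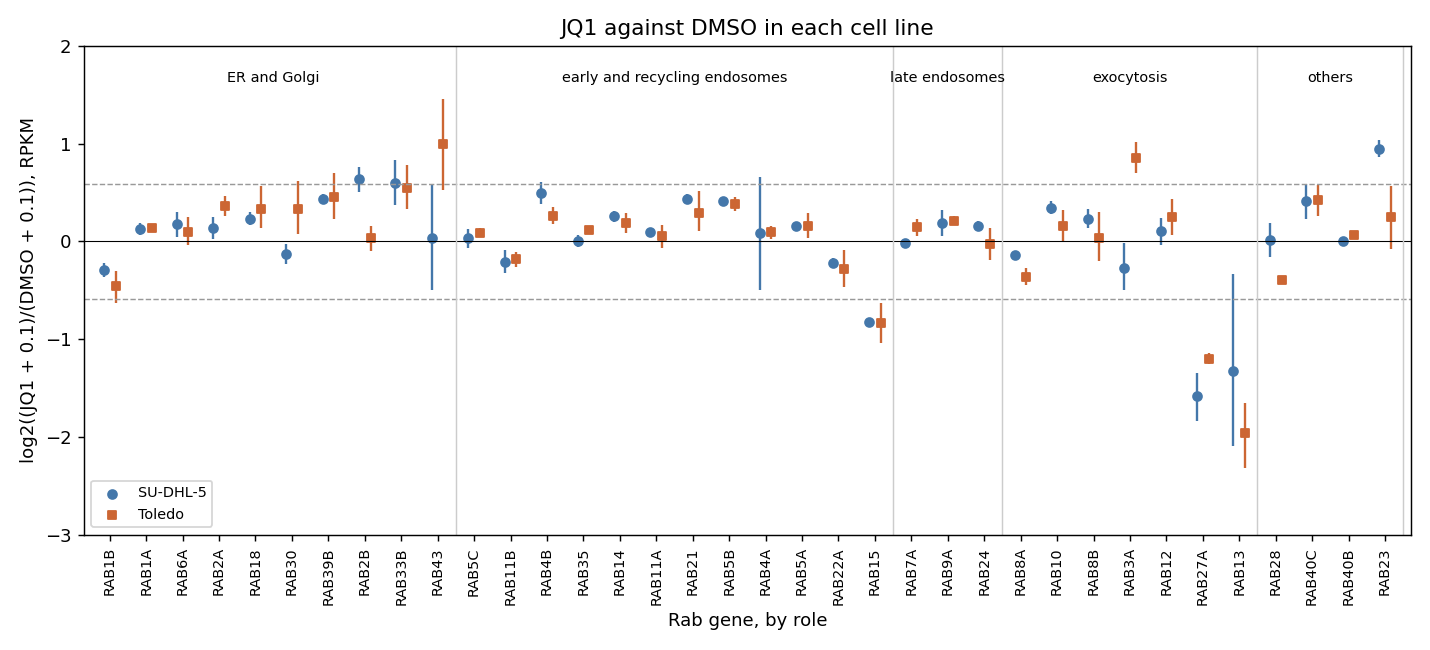
JQ1 against DMSO for the 36 Rab genes of at least 1 RPKM, as log2((JQ1 + 0.1)/(DMSO + 0.1)) of RPKM on the vertical axis (points, means of the libraries; lines, the lowest and highest of the 4 pairs of libraries; circles, SU-DHL-5; squares, Toledo; dashed, 1.5-fold). Most points lie near 0, RAB15, RAB27A and RAB13 are below the lower dashed line in both lines, and RAB3A is above the upper one in Toledo and below 0 in SU-DHL-5.

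RAB27A, which tethers lytic granules, multivesicular bodies and other secretory organelles at the plasma membrane, lies at chr15:55202966-55289832 (GRCh38, the whole gene). It was at 3.58 and 3.45 RPKM in the DMSO libraries of SU-DHL-5 and at 1.29 and 0.929 with JQ1. In Toledo it was at 3.60 and 3.72 RPKM with DMSO and at 1.57 and 1.501 with JQ1. The DMSO levels of the lines were nearly equal, and with JQ1 every library was below every DMSO library. The log2 ratio was -1.58 in SU-DHL-5, from 431 to 131 reads (interval -1.94 to -1.36), and -1.20 in Toledo, from 466 to 187 reads (interval -1.50 to -1.003).

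The transcript table lists 6 transcripts of RAB27A, of which 3 carried most of its level. All 3 were lower with JQ1 in both lines. The transcript numbered 1 had a mean of 1.62 RPKM with DMSO and 0.190 with JQ1 in SU-DHL-5, whereas in Toledo it had 0.469 and 0.037. Number 2 went from 1.73 to 0.796 in SU-DHL-5, and in Toledo from 2.70 to 1.39. Number 6, which ends at another position on the 3′ side, went from 1.91 to 0.548 and from 2.86 to 0.577. The mix also differed between the lines, with number 1 nearer to number 2 in SU-DHL-5 than in Toledo.

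RAB15 (chr14:64945814-64972294) was at 7.74 and 7.44 RPKM with DMSO and 4.26 and 4.25 with JQ1 in SU-DHL-5. The libraries of a sample were almost equal, and the log2 ratio was -0.82, from 875 to 467 reads (interval -1.0001 to -0.67). In Toledo it was at 0.513 and 0.576 RPKM with DMSO and 0.296 and 0.228 with JQ1, a log2 ratio of -0.83 from 65 to 30 reads (interval -1.72 to -0.40). Without the added 0.1 RPKM, JQ1 was at 0.560 of DMSO in SU-DHL-5 and at 0.482 in Toledo, at levels far apart. The gene overlaps CHURC1-FNTB, which had means of 7.49 RPKM with DMSO and 3.83 with JQ1 in SU-DHL-5, and in Toledo of 6.49 and 4.28. The library kit keeps strand, and whether strand was used in counting is not given in the sources used here. Whether reads of the overlapping gene add to the level of RAB15 was not tested.

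RAB13 (chr1:153981617-153986377) was at 3.32 and 3.46 RPKM with DMSO and 0.988 and 0.613 with JQ1 in Toledo. This was a log2 ratio of -1.96, from 186 to 42 reads, with an interval of -2.60 to -1.59. In SU-DHL-5 it was barely detected, at 0.0787 and 0.328 RPKM with DMSO and at 0 and 0.0423 with JQ1. There the log2 ratio of -1.32 rests on 11 reads and 1 read, and the interval from -8.82 to -0.61 is wide. Of its 50-base words, 21.8% occur in other annotated genes, so part of its reads may be placed elsewhere.

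Of the genes higher with JQ1 in SU-DHL-5, RAB23, a negative regulator of Hedgehog signalling in the primary cilium, was at 1.06 and 1.18 RPKM with DMSO and 2.28 and 2.24 with JQ1 (log2 ratio 0.95, interval 0.74 to 1.27). In Toledo it was at 0.909 and 1.15 against 1.40 and 1.08, and the libraries overlapped. RAB2B, a Golgi Rab, was at 3.19 and 3.44 against 5.48 and 4.92 RPKM in SU-DHL-5 (log2 ratio 0.63) and differed by 0.03 in Toledo. RAB33B, which binds ATG16L1 in autophagy and acts at the Golgi, was at 1.74 and 2.24 against 2.93 and 3.18 in SU-DHL-5 and at 3.11 and 4.27 against 5.43 and 5.40 in Toledo. Its log2 ratios of 0.59 and 0.54 lie on either side of the cutoff. From library 2 alone, RAB2B was at 0.50 and RAB33B at 0.49 in SU-DHL-5 and neither was called, and without library 2 of Toledo DMSO, RAB33B was called in Toledo at 0.78.

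In Toledo, RAB3A was at 1.09 and 1.27 RPKM with DMSO and at 2.13 and 2.31 with JQ1 (log2 ratio 0.86, from 60 to 108 reads, interval 0.45 to 1.39). In SU-DHL-5, where its level was higher, it was at 9.16 and 7.02 against 6.46 and 6.93 (log2 ratio -0.27). RAB43, a Rab of ER to Golgi transport, was at 0.943 and 0.658 against 1.41 and 1.99 RPKM in Toledo (log2 ratio 1.00) and differed by 0.04 in SU-DHL-5. From library 1 alone it was at 0.53 in Toledo and not called. Of its 50-base words, 80.0% occur in other annotated genes, mainly the read-through gene ISY1-RAB43, so its level is uncertain. The same share was 38.2% for RAB24, 37.7% for RAB4B, 24.7% for RAB5C, 17.9% for RAB4A and 14.2% for RAB6A.

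By role, the calls with JQ1 were spread over the family. Of all genes, 8.65% were higher and 11.9% lower in SU-DHL-5, and 6.57% higher and 16.1% lower in Toledo. No role was tested against these shares, and each holds at most 12 genes. Of the 7 genes of exocytosis, 2 were lower in each line (RAB27A and RAB13) and 1 higher in Toledo (RAB3A). Of the 12 genes of early and recycling endosomes, 1 was lower in each line (RAB15), and the median log2 ratio was 0.09 and 0.10. Of the 10 ER and Golgi genes, 2 were higher in SU-DHL-5 (RAB2B and RAB33B) and 1 in Toledo (RAB43), with medians of 0.15 and 0.33. RAB1B, the highest of them, had log2 ratios of -0.30 and -0.46 and was not called, though its JQ1 libraries were below its DMSO libraries in both lines. The 3 genes of late endosomes, RAB7A, RAB9A and RAB24, had no call, and of the other 4 only RAB23 was called, in SU-DHL-5.

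Genes that serve the Rab cycle were read from a list of 8 prenylation and GDI genes and a list of 42 effectors, both drawn up with earlier results of these data known. All 8 genes of the cycle had a mean of at least 1 RPKM over the libraries. CHML, named here after its values were seen, reached it only through Toledo. With DMSO its mean was 0.0905 RPKM in SU-DHL-5 and 6.71 in Toledo. RABIF (MSS4), a chaperone for nucleotide-free exocytic Rabs such as RAB8A, RAB10 and RAB13, was the only one called in both lines. Of all genes, 3.54% were higher in both, and the count of 1 of 8 was not tested against that share. RABIF was at 7.83 and 7.45 RPKM with DMSO and 13.5 and 14.8 with JQ1 in SU-DHL-5. In Toledo it was at 10.5 and 10.9 against 20.2 and 17.9. The log2 ratios were 0.88 (interval 0.76 to 1.01) and 0.83 (0.73 to 0.94), and the libraries did not overlap. RABGGTA, the alpha subunit of Rab geranylgeranyl transferase, was named here after its values were seen. It was called lower in Toledo, with a log2 ratio of -0.69, and was at -0.40 in SU-DHL-5. Of all genes, 16.1% were called lower in Toledo.

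Of the 40 effectors in the table, 24 had at least 1 RPKM. With JQ1, 1 was higher and 3 lower in SU-DHL-5 (8.65% and 11.9% of all genes), and 2 higher and 3 lower in Toledo (6.57% and 16.1%). The median log2 ratios were 0.14 and 0.22, against 0.01 and -0.06 for all genes. SYTL1 and MICALL1 were lower in both lines, 2 of the 24, where 8.53% of all genes were lower in both. SYTL1, the synaptotagmin-like protein Slp1 that binds RAB27A, was at 2.24 and 2.51 RPKM with DMSO and 0.832 and 0.939 with JQ1 in SU-DHL-5. In Toledo it was at 1.85 and 1.21 against 0.410 and 0.345. The log2 ratios were -1.33 (interval -1.84 to -1.05) and -1.77 (interval -2.62 to -1.47), and no library of JQ1 reached any of DMSO in the same line. MICALL1, a protein of recycling endosomes that binds several Rabs, was at 2.36 and 1.53 RPKM against 0.799 and 1.00 in SU-DHL-5 and at 4.74 and 4.93 against 1.90 and 1.76 in Toledo (log2 ratios -1.03 and -1.35).

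**Figure D4:**
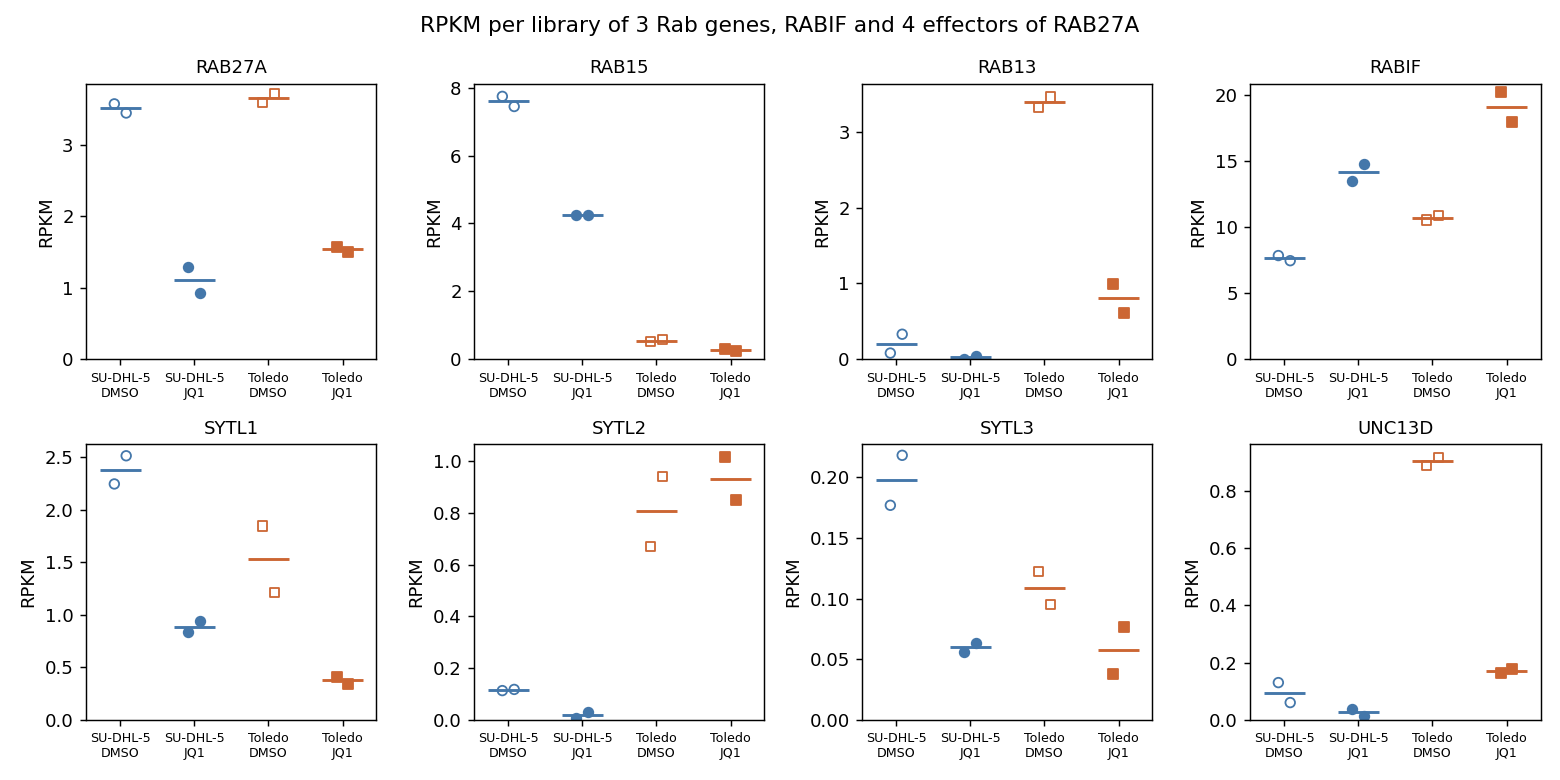
RPKM in each library (points; horizontal bars, means of the 2 libraries) for RAB27A, RAB15 and RAB13, for RABIF and for the RAB27A effectors SYTL1, SYTL2, SYTL3 and UNC13D, in the 4 samples, each panel on its own axis from 0. In each panel and line the JQ1 libraries are all below the DMSO libraries, except for RABIF, where they are all above, and SYTL2 in Toledo, where they overlap.

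The following genes were chosen after their values were seen. UNC13D (Munc13-4), the RAB27A effector that primes granules for fusion, was below 1 RPKM in the mean and not counted. It was at 0.890 and 0.919 RPKM with DMSO and 0.163 and 0.177 with JQ1 in Toledo (log2 ratio -1.89, from 150 to 27 reads), and at 0.130 and 0.0602 against 0.0372 and 0.0140 in SU-DHL-5, where only 15 and 4 reads stood behind it. The RAB27A effectors were not all lower in both lines. SYTL2 (Slp2), also below 1 RPKM in the mean, was at 0.671 and 0.941 RPKM with DMSO and 1.01 and 0.851 with JQ1 in Toledo, where the libraries overlapped (log2 ratio 0.19, from 245 to 273 reads, interval -0.03 to 0.48), and at 0.113 and 0.117 against 0.00671 and 0.0303 in SU-DHL-5, from 34 to 5 reads. SYTL3 (Slp3) went from 21 to 6 reads in SU-DHL-5, and Toledo had 12 with DMSO and 6 with JQ1. SYTL4, SYTL5 and MLPH were listed at 0. OPTN (optineurin), which binds RAB8A, was lower in SU-DHL-5, at 1.23 and 1.40 against 0.277 and 0.350 RPKM (log2 ratio -1.77), and differed by -0.03 in Toledo. RILPL2, which binds phosphorylated RAB8A and RAB10, was called lower in Toledo, with a log2 ratio of -0.65, and was at -0.41 in SU-DHL-5. RAB11FIP3 in SU-DHL-5 (0.72), RAB11FIP1 in Toledo (0.78) and MICAL1 in Toledo (0.67) were called higher, on the same log2 scale. In the other line they had the same sign without a call, at 0.28, 0.44 and 0.10. The first pair are effectors of RAB11 on recycling endosomes.

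Most of the 19 members below 1 RPKM were higher in Toledo. Of all 55 members, 10 were listed at 0 in every SU-DHL-5 library and 2 (RAB26 and RAB3B) in every Toledo library. Members needed only a mean above 0, so these entered through the other line and could only be higher there. The same filter applied to the genes of the shares below. Within the 19, by the same 1.5-fold rule, 11 were higher in Toledo at baseline (25.6% of the 5423 genes above 0 and below 1 RPKM were) and 2 lower (16.2%). With JQ1, 7 were lower (19.5%) and 0 higher (5.26%) in Toledo, and 2 were lower (15.5%) and 1 higher (4.2%) in SU-DHL-5. At these levels the rule rests on few reads. RAB37 was the one with most reads. It was at 1.99 and 1.98 RPKM with DMSO and 0.995 and 0.838 with JQ1 in Toledo (log2 ratio -1.04, from 254 to 112 reads, interval -1.45 to -0.79), and RAB31 was at 1.74 and 2.37 against 1.39 and 1.505 (log2 ratio -0.48).

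In SU-DHL-5, the low members called with JQ1 were RAB26, RAB33A and RAB3D. RAB26, a Rab of secretory granules, was at 0.392 and 0.326 RPKM with DMSO and 1.04 and 0.885 with JQ1, from 19 to 49 reads (interval 0.65 to 2.28), and was listed at 0 in Toledo. RAB33A, the close relative of RAB33B, was at 0.977 and 0.744 against 0.328 and 0.185, from 31 to 9 reads (interval -2.97 to -0.61). RAB33A and RAB33B thus had opposite signs in SU-DHL-5. The 6 other low members called with JQ1 in Toledo (RAB17, RAB20, RAB34, RAB36, RAB39A and RAB42) had between 5 and 34 reads with DMSO, and for RAB17, RAB20 and RAB39A the interval of the read ratio included 0.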

How the data were processed

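The authors sequenced stranded mRNA libraries and deposited 1 table of RPKM values by gene and another by transcript, with positions on GRCh38 (CASAVA 2.0 is named in the submitters' processing notes, and the aligner, the counting and the annotation are not given in the sources used here). Each sample's 2 libraries were averaged, and ratios are log2((a + 0.1)/(b + 0.1)) of mean RPKM. Genes with a mean of at least 1 RPKM were counted. Mapped reads per library and reads per gene were recovered from the RPKM values as the whole numbers that fit them within 0.05 reads. On simulated data this held for 97.3% of 300 genes. For genes of few reads, every recovered number may be short by the same factor. Exact binomial 95% intervals were computed on recovered reads, before the 0.1 is added. Shared 50-base words were counted in GENCODE transcripts.

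The members, roles and lists were chosen with earlier results of these data known. Genes were named by rule, namely members called in any comparison, the 10 highest members, the RAB3, RAB5, RAB7, RAB11 and RAB27 paralogues, genes of the lists called in both lines, and HEXIM1 and MYC. Other genes of the lists were named after their values were seen, as said beside them, and B-cell markers and overlapping genes were named as checks. Alternatives varied the pseudocount, the filter, the cutoff, the libraries used, the scaling, a correction for length, and the table. Computation used matplotlib 3.10.9, scipy 1.17.1, pandas 2.3.3 and numpy 2.4.6 under Python 3.11.15. A marker of the lists is not reported here.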

Additional observations from a re-analysis of the deposited data

Results flagged for a closer look

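Of the 36 Rab genes of at least 1 RPKM, 2 had their JQ1 libraries apart from their DMSO libraries in opposite directions in the lines, as did 7.05% of all such genes. RAB3A was lower with JQ1 in SU-DHL-5 (log2 ratio -0.27) and higher in Toledo (0.86), a difference between the lines of 1.13. RAB30 was lower in SU-DHL-5 (-0.13) and higher in Toledo (0.34), a difference of 0.46. With 1 sample per condition, neither difference between the lines was tested.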

How the results depend on the processing

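No paired analysis was possible because no test was made, with 1 sample per condition. Of 372 values recomputed under alternatives, 293 stayed within their limits and 79 moved. No value of a single gene changed sign, but the baseline median changed sign. RAB27A, RAB15 and RAB13 were called lower in both lines under the alternatives run except 3. With a pseudocount of 1 RPKM, 1 gene remained (RAB27A), with a cutoff of 2-fold 2 (RAB13 and RAB27A), and with a mean of at least 5 RPKM 0, since none of the 3 reaches that level. RAB33B was called higher in both lines, 1 gene against 0, with library 1 alone and without library 2 of Toledo DMSO. The counts of Rab genes with JQ1 changed as follows. In SU-DHL-5, the 3 higher genes became 1 with a pseudocount of 1 RPKM and with library 2 alone, and 0 with a mean of at least 5 RPKM and with 2-fold. The 3 lower became 5 without a filter and 0 with at least 5 RPKM. In Toledo, the 2 higher became 0 with a pseudocount of 1 RPKM, with at least 5 RPKM and with 2-fold, and 4 with library 1 alone and without library 2 of Toledo DMSO. The 3 lower became 10 without a filter and 0 with at least 5 RPKM. At baseline, the 9 higher became 20 without a filter, 4 with at least 5 RPKM and 3 with 2-fold, and the 9 lower became 4 with 2-fold. The median log2 ratio in SU-DHL-5, 0.12, became 0 without a filter, 0.15 with at least 5 RPKM and 0.0932 with library 2 alone. That in Toledo, 0.14, ranged from 0.0299 without a filter to 0.22 with the correction for length, and was 0.0545 with library 2 alone. The baseline median, -0.09, became -0.0552 with a pseudocount of 1 RPKM, -0.0562 without library 1 of Toledo DMSO, -0.19 with at least 5 RPKM, -0.0135 with library 1 alone, 0.21 without a filter and 0.0803 with transcript values summed. RAB33B in SU-DHL-5 was also lost under both scalings, and RAB2A at baseline with the correction for length. Leaving out a library of Toledo DMSO was chosen after seeing the data. Beyond the filters and cutoffs themselves, what lies behind these changes was not tested. Depth limits the members below 1 RPKM, several of which rest on under 20 reads.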
